A study of Mus musculus with 6 samples.

Results

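The heat shock genes described here are Hsf1, the transcription factor of the heat shock response, and 9 chaperone genes: Hspa8, Hspa4, Dnaja1, Dnajb1, Hsp90aa1, Hsp90ab1 and Hspb1 of the cytosol, and Hspd1 and Hspe1 of the mitochondrion. A gene entered with every probe set (a group of short probes that reads 1 transcript region) that the platform annotation assigns to it and to no other gene, whatever its values. That gave 23 probe sets for 8 of the 10 genes, among 34945 probe sets that name a single gene. No probe set was named for Hsf1 or Hsp90ab1 in the annotation used here, and both were not analysed here.

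Haematopoietic stem cells (HSC), the cells that sustain blood formation, came from bone marrow and carried the sort phenotype CD150+CD48- KSL. Donors were Lig4mut mice and wild-type (WT, Lig4+/+) littermates, all 6 to 8 weeks old and bred from Lig4mut/+ parents. DNA ligase IV, the product of Lig4, joins broken DNA ends, and the study's question is whether HSC persist without it in its normal form. RNA was taken up in Trizol, amplified with the Ovation Pico WTA System V2 kit and hybridised to 1-colour Affymetrix arrays, with 3 arrays for each genotype. The labelling protocol in the labels instead names the standard Affymetrix cRNA method. The sources used here do not give the kind of mutation in the Lig4mut allele, nor how many mice make up a replicate. The p-values measure the spread between these 6 samples.

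Heat shock proteins fold new and damaged proteins. Hsp70 proteins such as Hspa8 bind unfolded stretches in a cycle driven by ATP, which J-domain partners such as Dnaja1 and Dnajb1 start and nucleotide exchange factors such as Hspa4 reset, while Hsp90 proteins finish selected clients and small heat shock proteins such as Hspb1 hold unfolded ones. In mitochondria, Hspd1 forms the folding chamber and Hspe1 its lid. On proteotoxic stress Hsf1 binds heat shock elements, arrays of inverted NGAAN units, and raises many of these genes together. HSC keep their rate of protein synthesis low and are sensitive to misfolded protein.

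Promoter sequence is shown because Hsf1 acts on the genes through it, and it shows which members carry inverted heat shock units close to their start. RefSeq promoters of GRCm38.p6 (windows of 300 bases, 250 before the start site and 50 after it) were matched by symbol for 6 members in 10 windows: Hspd1, Hspe1, Dnaja1, Hspb1, Dnajb1 and Hspa4. The pair of inverted units GAANNTTC or TTCNNGAA, each its own reverse complement so that both strands are covered, was searched with overlaps allowed. It lay in 4 of the 10 windows, 1 each for Hspd1, Hspe1, Dnaja1 and Hspb1, and in 15.1% of all 32851 promoter windows of this length. A run of 3 units, GAANNTTCNNGAA or TTCNNGAANNTTC on either strand, lay in 2 member windows and in 0.603% of all windows. Matched bases are in capitals, positions are counted from the start site as 0, and a match is a description of the letters, not of binding.

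Hspe1 at chr1:55088039-55088096, plus strand, 3 overlapping matches beginning at -89, -84 and -79:
Hspe1: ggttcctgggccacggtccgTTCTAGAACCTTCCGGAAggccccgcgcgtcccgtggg
Hspb1 at chr5:135887782-135887849, plus strand, matches beginning at -117 and -97:
Hspb1: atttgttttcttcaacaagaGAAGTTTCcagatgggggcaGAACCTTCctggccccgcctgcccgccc
Dnaja1 at chr4:40722324-40722371, plus strand, 1 match beginning at -124:
Dnaja1: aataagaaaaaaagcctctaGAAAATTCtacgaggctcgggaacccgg
Dnajb1 at chr8:83607925-83608174, plus strand, the 250 bases before the start site, in which neither spelling was found:
Dnajb1: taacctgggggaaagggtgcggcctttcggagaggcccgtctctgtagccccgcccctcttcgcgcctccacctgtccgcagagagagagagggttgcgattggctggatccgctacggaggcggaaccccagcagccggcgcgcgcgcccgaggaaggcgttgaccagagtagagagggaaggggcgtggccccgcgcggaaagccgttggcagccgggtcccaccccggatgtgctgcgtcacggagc

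The 18 capital bases of Hspe1, at chr1:55088059-55088076, are shared with Hspd1. The gene pair is divergent: the Hspe1 start site at 55088148 lies 216 bases from an Hspd1 start site at 55087932 on the minus strand, and their windows share 285 bases. Another Hspd1 start is annotated at 55088243, and its window held no match. The windows of Hspa4 and of Dnajb1 held none either, which says only that these letters are not in those windows.

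Array-wide values bear on every result below. Deposited array medians were 6.29 to 6.34 in WT and 5.97 to 6.05 in Lig4mut (log2), and in the deposited values pairs of Lig4mut arrays had r = 0.849 to 0.864, pairs of WT arrays 0.940 to 0.950 and mixed pairs 0.866 to 0.900 (Pearson, over probe sets, as a description). The lowest value of 3 was held by 5.59% to 5.67% of probe sets in WT and by 6.45% to 6.54% in Lig4mut. In the same values the Gapdh controls differed by 0.83 to 0.96 (3' minus 5', log2) in WT and by 0.86 to 1.17 in Lig4mut. The actin controls differed by -0.43 to -0.18 in WT and by -0.23 to 0.08 in Lig4mut. All levels and differences that follow are quantile normalized, which gives the arrays 1 distribution, unless another scaling is named. Lig4 itself was lower in all 3 Lig4mut arrays, at 4.97, 3.16 and 3.10 against 7.53, 6.66 and 7.63 in WT, with a difference of -3.53 ± 0.61 (SE, n = 3 per genotype; limma adjusted p = 0.13). Of 10 measured stem cell markers 7 had lower and 3 higher means in Lig4mut: Kit stood at 10.95, 10.70 and 10.73 in WT and at 9.62, 9.56 and 10.35 in Lig4mut, while Slamf1, which encodes the sort marker CD150, stood at 9.17 to 10.17 and 8.89 to 10.71. Of 6 measured genes of the negative gates 2 had lower and 4 higher means, with Cd48 at 5.04 to 7.31 in WT and 5.24 to 5.95 in Lig4mut and Cd3e at 3.70 to 3.96 and 4.13 to 4.67. The mean log2 level of 12 granulocyte genes was 8.30, 7.24 and 7.47 in WT and 6.03, 10.59 and 6.70 in Lig4mut, where replicate 2 stood apart. Positive differences were found for 11 of 12 macrophage and dendritic cell genes and 11 of 11 B cell genes, and for 11174 of all 18193 genes. As deposited, Itgax of the first list was at -0.01 and Cd79a of the second at -0.15, and the other positive ones stayed above 0. Xist was high in 1 array of each genotype (WT replicate 3 and Lig4mut replicate 2). The part of these values in the results on heat shock genes was not tested. In sorted bulk cells, fewer cells of a type and less RNA per cell cannot be told apart.

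Most heat shock probe sets were bright in HSC of both genotypes, those of Hspb1 were not, and none of the 23 passed the test. Of the 23 probe sets, 18 were among the brightest 20% (mean log2 level of at least 8.80), and 15 had a lower and 8 a higher mean in Lig4mut. The adjusted threshold of 0.05 (limma, Benjamini-Hochberg over 34945 probe sets) was passed by 0 of 23, against 1 probe set or 0.00286% of all. At an unadjusted p under 0.05, 3 probe sets were lower, both of Dnajb1 and 1 of Hsp90aa1, where 5.30% of all probe sets were. Another 2, both dim probe sets of Hsp90aa1, were higher, where 12.2% of all were. These 5 were also the probe sets whose Lig4mut arrays lay all below (3 of 23, against 7.13% of all) or all above the WT arrays (2 of 23, against 16.6%).

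The brightest 20% of probe sets had lower differences than all probe sets together, so they are the closer background. Among the 18 bright members, 3 were lower at an unadjusted p under 0.05, against 7.65% of the brightest 20%, and none was higher, against 3.68%. In the same 3 all Lig4mut arrays lay below WT, against 11.4%, and in none all lay above, against 5.29%. The median difference of the 18 bright members was -0.16, beside -0.13 for the brightest 20%. It was 0.48 for the other 5 members and -0.13 for all 23, beside 0.08 for all probe sets. The Dnajb1 pair of probe sets reads a single gene. Member SDs had a median of 0.164 in WT and of 0.253 in Lig4mut, beside 0.310 and 0.481 for all probe sets and 0.282 and 0.557 for the brightest 20%. In Lig4mut 17 of 23 members varied more, as did 68.2% of all probe sets and 78.2% of the brightest 20%.

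**Figure D1:**
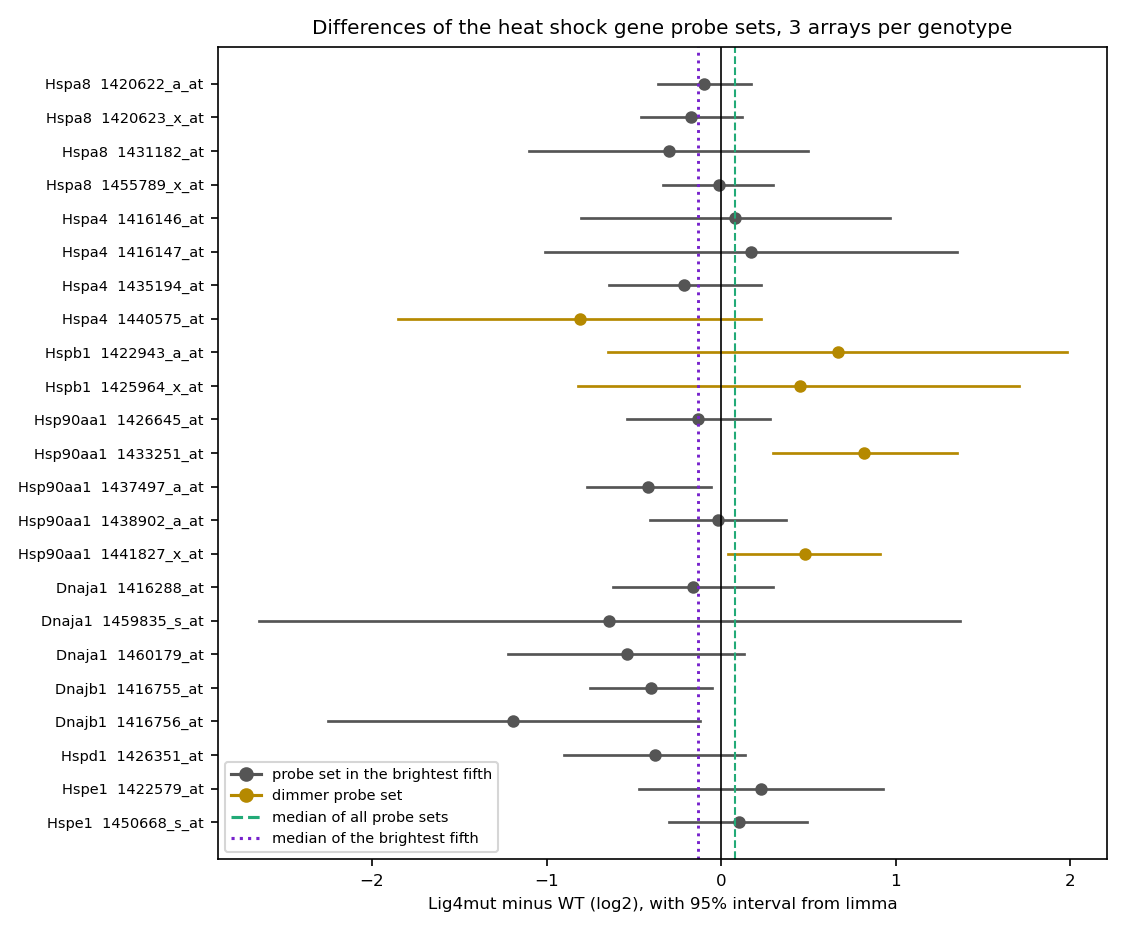
Difference of each member probe set, Lig4mut minus WT on the log2 scale (x axis), with its 95% interval from limma, n = 3 arrays per genotype; the lines mark 0 and the medians of all probe sets (0.08) and of the brightest 20% (-0.13). The intervals of both Dnajb1 probe sets and of 1437497_a_at of Hsp90aa1 lie below 0, and those of 2 dim Hsp90aa1 probe sets above it.

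The sign of a small difference depended on how the arrays were put on 1 scale. With quantile normalization 15 members were lower and 8 higher, with the values as deposited 15 and 8, with cyclic loess (a pairwise smoothing of array against array) 13 and 10, and with arrays centred on their medians 7 and 16. The median of all probe sets moved with it, from 0.08 to -0.04, 0.01 and 0.28, and the share of higher ones among probe sets at an unadjusted p under 0.05 was 69.7%, 42.2%, 51.9% and 78.9%. The difference of a member less the median difference of the brightest 20% moved little for bright members. For Dnajb1 that relative difference was -0.26 with quantile and deposited values and -0.28 with loess at 1416755_at, and -1.05 to -1.02 at 1416756_at. Median centring shifts a whole array by a constant, so its relative differences equal the deposited ones by construction and are no separate check.

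**Figure D2:**
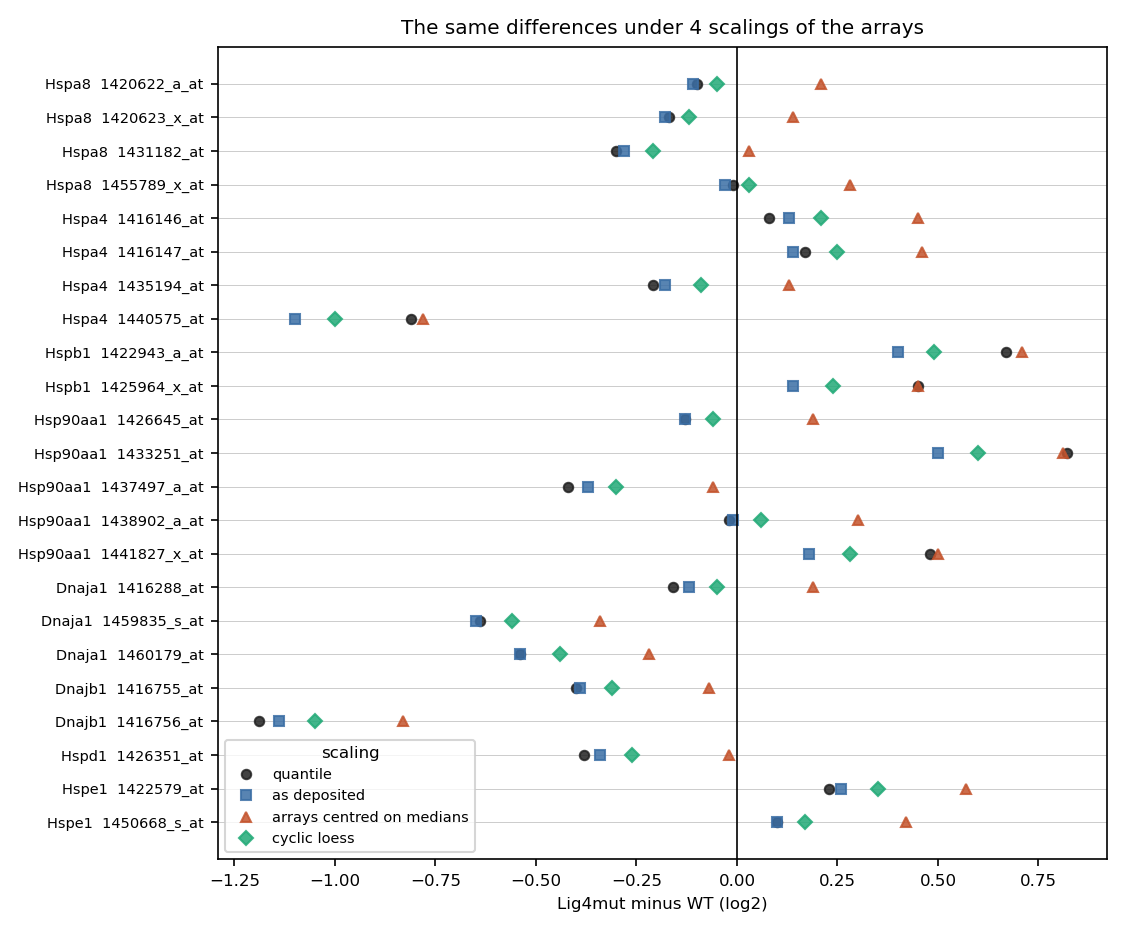
Lig4mut minus WT (log2, x axis) of each member probe set with quantile normalized, deposited, median-centred and cyclic loess values, n = 3 arrays per genotype. Both Dnajb1 and both Hspe1 probe sets keep their side of 0 in all 4, whereas all 4 Hspa8 probe sets are below 0 as deposited and above it when arrays are centred on their medians.

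The J-domain genes had negative differences at all 5 of their probe sets, except that 1416288_at of Dnaja1 became 0.19 with arrays centred on their medians. Dnajb1, the heat-inducible class B partner that brings unfolded protein to Hsp70, was lower in Lig4mut by both of its probe sets. At 1416755_at its log2 levels were 11.83, 12.17 and 12.13 in WT and 11.59, 11.69 and 11.66 in Lig4mut. All 3 Lig4mut arrays were below the lowest WT array, which was WT replicate 1. The means were 12.04 ± 0.18 and 11.64 ± 0.05 (SD, n = 3), and the difference was -0.40 ± 0.14 (SE; 95% interval -0.75 to -0.05), a 1.32-fold lower mean, with a limma adjusted p of 0.244. The groups overlapped, at a difference of -0.07, once arrays were centred on their medians.

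At 1416756_at the levels of Dnajb1 were 10.66, 11.32 and 11.22 in WT and 9.29, 9.69 and 10.65 in Lig4mut. WT replicate 1 was only just above Lig4mut replicate 3, and the groups overlapped as deposited, median-centred and with loess. The means were 11.07 ± 0.35 and 9.88 ± 0.70 (SD, n = 3), and the difference was -1.19 ± 0.41 (SE; 95% interval -2.25 to -0.12), a 2.28-fold lower mean (limma adjusted p = 0.249). Its difference ran from -1.57 to -0.89 over the 6 fits that each leave out 1 array, and from -1.19 to -0.83 over the scalings. Among the brightest 20% of probe sets, 3.75% had a lower difference than 1416756_at and 30.6% a lower one than 1416755_at. The mean of both probe sets differed by -0.79 ± 0.25 (SE, n = 3; limma adjusted p over all genes = 0.171).

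Dnaja1, the farnesylated class A partner of Hsp70, had negative differences at all 3 probe sets, and all groups overlapped. At 1460179_at its levels were 9.92, 10.24 and 10.03 in WT and 9.22, 9.30 and 10.04 in Lig4mut. Lig4mut replicates 1 and 2 were below every WT array, and replicate 3 was among them. The difference was -0.54 ± 0.26 (SE, n = 3; 95% interval -1.22 to 0.13; limma adjusted p = 0.369).

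A single array set the value of Dnaja1 at 1459835_s_at, where WT stood at 10.54, 10.67 and 10.45 and Lig4mut at 11.24, 8.27 and 10.23. The SD was 0.11 in WT and 1.51 in Lig4mut, and the difference of -0.64 ± 0.78 (SE, n = 3) became 0.18 without Lig4mut replicate 2. The suffix _s_at marks probes shared by several transcripts, and _x_at probes that may also bind unrelated ones. At 1416288_at, with levels of 11.32 to 11.74 in WT and 11.32 to 11.63 in Lig4mut, the difference was -0.16 ± 0.18 (SE, n = 3; 95% interval -0.62 to 0.30; limma adjusted p = 0.698).

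Hspa8, the constitutive Hsp70 of the cytosol, was bright on every array and overlapped between genotypes at all 4 probe sets. At 1420622_a_at its levels were 12.73, 12.83 and 12.84 in WT and 12.71, 12.76 and 12.64 in Lig4mut. The genotypes overlapped, with a difference of -0.10 ± 0.10 (SE, n = 3; 95% interval -0.36 to 0.17; limma adjusted p = 0.687). At 1420623_x_at, 1431182_at and 1455789_x_at the differences were -0.17 ± 0.11, -0.30 ± 0.31 and -0.01 ± 0.12 (SE, n = 3; limma adjusted p = 0.509, 0.671 and 0.993), again with overlapping groups. Centred on array medians, the 4 differences were 0.03 to 0.28, beside a median of 0.19 for the brightest 20%. Under that scaling all Lig4mut arrays lay above WT at 1420622_a_at, and the groups overlapped at the other probe sets. Hspa8 has processed pseudogenes, so probe sets marked _x_at may read more than the gene.

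Hspa4, an Hsp110 protein that exchanges the nucleotide of Hsp70, gave differences of both signs. At its brightest probe set, 1416146_at, WT stood at 11.04, 11.14 and 11.42 and Lig4mut at 11.78, 11.47 and 10.60. Lig4mut replicates 1 and 2 were the highest of all arrays and replicate 3 the lowest, and the difference was 0.08 ± 0.35 (SE, n = 3; 95% interval -0.80 to 0.97; limma adjusted p = 0.942). The dim probe set 1440575_at of Hspa4 stood at 6.22, 7.65 and 7.35 in WT and at 6.19, 6.19 and 6.42 in Lig4mut. There WT replicates 2 and 3 were high and WT replicate 1 lay among the Lig4mut arrays. Its difference was -0.81 ± 0.41 (SE, n = 3; limma adjusted p = 0.382), and as deposited it was -1.10 with no overlap. At 1416147_at and 1435194_at the differences were 0.17 ± 0.46 and -0.21 ± 0.17 (SE, n = 3; limma adjusted p = 0.892 and 0.589).

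**Figure D3:**
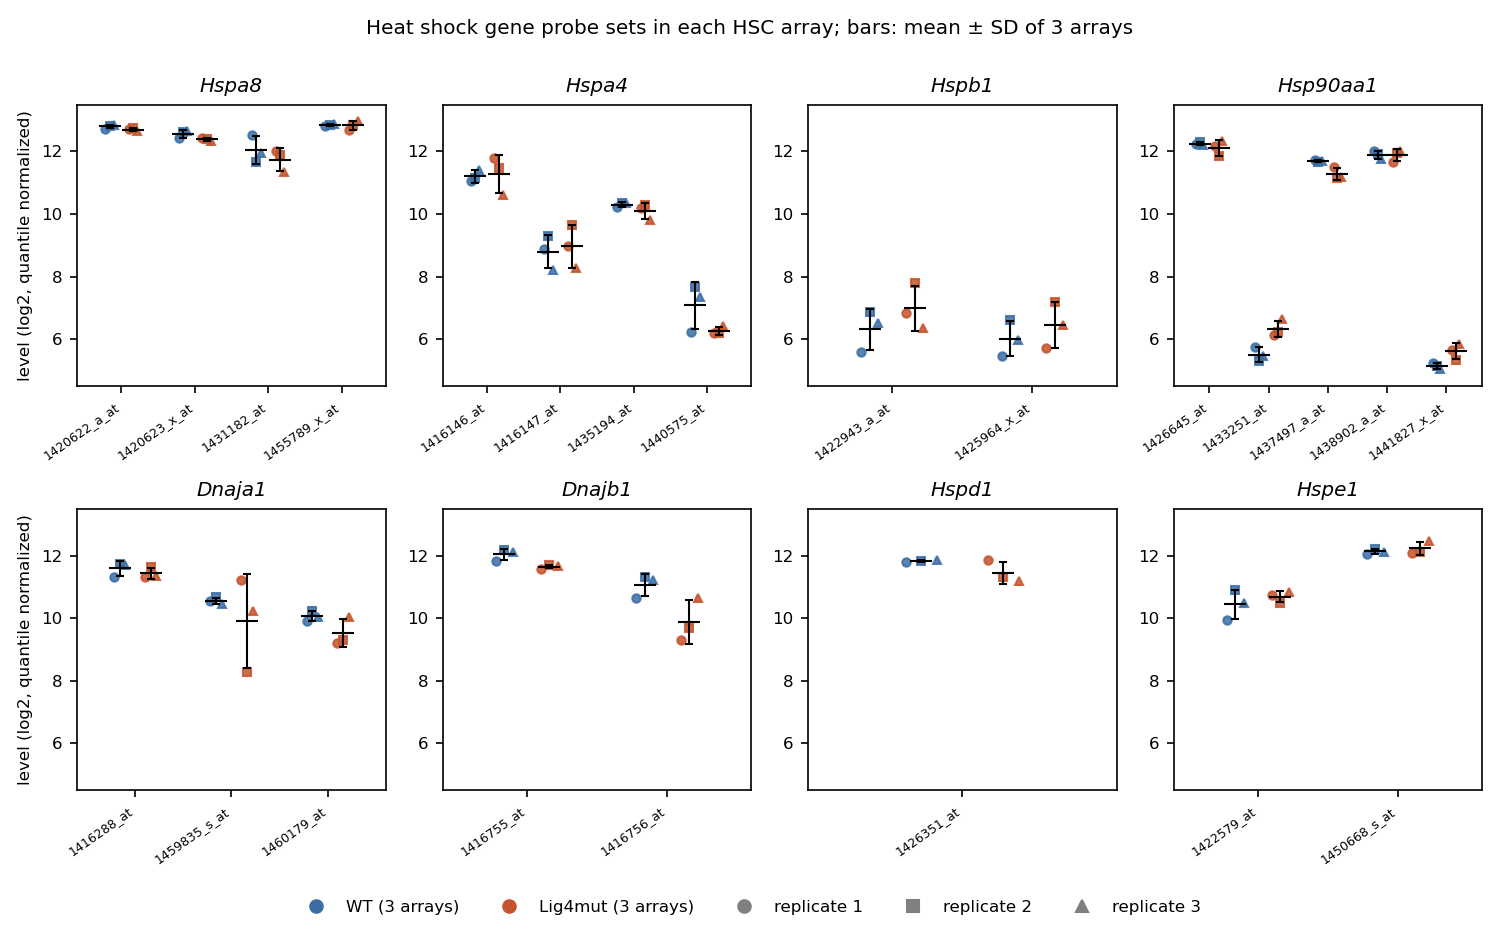
Log2 level (y axis, quantile normalized) of each member probe set in each array, WT and Lig4mut side by side, with symbols for replicates 1 to 3 and bars for the mean ± SD of 3 arrays. Dnajb1 lies lower in Lig4mut at both probe sets, Lig4mut replicate 2 stands apart at 1459835_s_at of Dnaja1 (8.27), and levels of different probe sets are not comparable.

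Hsp90aa1, the stress-inducible Hsp90 of the cytosol, had 3 bright probe sets and 2 dim ones that did not move together. At the bright 1437497_a_at its levels were 11.72, 11.67 and 11.68 in WT and 11.50, 11.15 and 11.17 in Lig4mut. All Lig4mut arrays lay below WT, where the 3 arrays were close together. The difference was -0.42 ± 0.14 (SE, n = 3; 95% interval -0.77 to -0.06), a 1.33-fold lower mean with a limma adjusted p of 0.236, and it was -0.06 with overlapping groups when arrays were centred on their medians.

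The other bright probe sets of Hsp90aa1 did not share that separation. At 1426645_at the levels were 12.25, 12.29 and 12.21 in WT and 12.16, 11.85 and 12.34 in Lig4mut, with a difference of -0.13 ± 0.16 (SE, n = 3; limma adjusted p = 0.722). At 1438902_a_at they were 12.00, 11.93 and 11.75 against 11.66, 11.94 and 12.03, with a difference of -0.02 ± 0.15 (SE, n = 3; 95% interval -0.41 to 0.37; limma adjusted p = 0.989). Lig4mut replicate 3 was the highest array at both.

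The dim Hsp90aa1 probe sets were higher in Lig4mut. At 1433251_at WT stood at 5.76, 5.30 and 5.45 and Lig4mut at 6.14, 6.21 and 6.63, without overlap. The difference was 0.82 ± 0.20 (SE, n = 3; 95% interval 0.30 to 1.35), a 1.77-fold higher mean with a limma adjusted p of 0.17, and 0.50 as deposited. At 1441827_x_at the levels were 5.24, 5.14 and 5.03 against 5.66, 5.34 and 5.84, and the difference of 0.48 ± 0.17 (SE, n = 3; limma adjusted p = 0.255) was 0.18 with overlapping groups as deposited. The mean over the 5 probe sets of Hsp90aa1 was 0.15, against -0.13 at its brightest.

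Hspb1, the small heat shock protein that holds unfolded proteins and is strongly induced by stress, was dim and variable. At 1422943_a_at its levels were 5.59, 6.86 and 6.50 in WT and 6.82, 7.78 and 6.36 in Lig4mut. Replicate 2 was the highest array within both genotypes, and the groups overlapped. The difference was 0.67 ± 0.51 (SE, n = 3; 95% interval -0.65 to 1.98; limma adjusted p = 0.563). At 1425964_x_at it was 0.45 ± 0.49 (SE, n = 3; 95% interval -0.82 to 1.71; limma adjusted p = 0.691), from 5.47, 6.60 and 5.96 in WT and 5.72, 7.20 and 6.45 in Lig4mut. As deposited the 2 differences were 0.40 and 0.14, without Lig4mut replicate 2 they were 0.266 and 0.0718, and without WT replicate 1 they were 0.303 and 0.174. Both intervals span 0 widely, so the direction of Hspb1 was not resolved by 3 arrays per genotype.

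The chamber and lid genes of the mitochondrial chaperonin, which share the heat shock units printed above, had differences of opposite sign. Hspd1 at 1426351_at stood at 11.79, 11.83 and 11.86 in WT and at 11.85, 11.33 and 11.19 in Lig4mut. Lig4mut replicates 2 and 3 were below every WT array and replicate 1 was level with them, so that the SD was 0.04 in WT and 0.35 in Lig4mut. The difference was -0.38 ± 0.20 (SE, n = 3; 95% interval -0.90 to 0.14; limma adjusted p = 0.414), and -0.02 with arrays centred on their medians.

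Hspe1 at 1450668_s_at stood at 12.05, 12.23 and 12.13 in WT and at 12.09, 12.13 and 12.48 in Lig4mut. Lig4mut replicate 3, the lowest array for Hspd1, was the highest for Hspe1, and the groups overlapped. The difference was 0.10 ± 0.15 (SE, n = 3; 95% interval -0.30 to 0.49; limma adjusted p = 0.797). At 1422579_at of Hspe1 the levels were 9.96, 10.89 and 10.50 against 10.73, 10.49 and 10.83, with a difference of 0.23 ± 0.27 (SE, n = 3; 95% interval -0.47 to 0.93; limma adjusted p = 0.712). With arrays centred on their medians the Hspe1 differences were 0.42 and 0.57, and all Lig4mut arrays lay above WT at both probe sets. Under that scaling the median of the brightest 20% was 0.19, and the differences less this median were 0.23 and 0.38. How many of all probe sets separate under that scaling was not counted. Quantile normalized, 1450668_s_at was at -0.0288 without Lig4mut replicate 3 and 1422579_at at -0.0115 without WT replicate 1. The contrast between Hspd1 and Hspe1 was not tested. Hspe1 too has processed pseudogenes that an _s_at probe set may read.

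Beyond the members, 99 of 103 listed chaperone genes were measured, each by its brightest probe set, and none passed the adjusted threshold, against 2 of 18193 genes or 0.0110%. At an unadjusted p under 0.05, 7 of the 99 were lower, where 4.18% of all genes were, and 7 were higher, where 15.5% were. In all, 61 had a lower and 38 a higher mean in Lig4mut, with a median of -0.11. Of all genes 7019 were lower and 11174 higher, with a median of 0.18. Most of these lists had higher mean levels than all genes, so the brightest 20% of probe sets are the closer background for them. Small heat shock genes and heat shock factors did not. In that background 61.2% were lower, with a median of -0.13, close to the values of the 99. The match is rough, since that background counts probe sets, and the 99 are genes that include those dimmer lists. Whether the 99 differ from genes of the same level was not tested. The median of the 99 was -0.14 as deposited, -0.07 with loess and 0.18 with arrays centred on their medians. It stood beside 0.02, 0.09 and 0.33 for all genes and -0.12, -0.03 and 0.19 for the brightest 20% of probe sets.

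Both lists of Hsp70 partners had medians below 0 under all 4 scalings. Of 11 nucleotide exchange factors and co-chaperones of Hsp70, 9 had lower means (median -0.34, and -0.13 with arrays centred on their medians), and 3 were at an unadjusted p under 0.05: Hspbp1, an exchange factor, at -0.44 ± 0.13; Sgta, which hands over tail-anchored proteins, at -0.47 ± 0.17; and Bag3, the stress-induced Hsp70 partner of selective autophagy, at -1.74 ± 0.65 (SE, n = 3; limma adjusted p = 0.179, 0.232 and 0.235). Bag3 stood at 4.87, 5.65 and 7.30 in WT and at 4.05, 4.10 and 4.46 in Lig4mut. All Lig4mut arrays were below WT, and WT replicate 3 was far above the other WT arrays. Of 16 other J-domain genes, 11 had lower means (median -0.31, and -0.09 with arrays centred on their medians). The leading ones were Dnajb4, a close relative of Dnajb1, at -0.86 ± 0.34 and Dnajb5 and Dnajb12 at 0.53 ± 0.25 and 0.57 ± 0.39 (SE, n = 3; limma adjusted p = 0.251, 0.322 and 0.475). Dnajb4 stood at 10.57, 11.42 and 11.28 in WT and at 9.94, 10.04 and 10.72 in Lig4mut, with WT replicate 1 the lowest WT array and Lig4mut replicate 3 the highest Lig4mut array, as for Dnajb1 at 1416756_at.

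Of 17 measured Hsp90 co-chaperones, 12 had lower means, with a median of -0.18 that became 0.09 with arrays centred on their medians. Rpap3, of the R2TP complex that works with Hsp90, stood at 6.52, 7.40 and 6.04 in WT and at 5.36, 4.61 and 3.77 in Lig4mut, without overlap. Its difference was -2.07 ± 0.54 (SE, n = 3; limma adjusted p = 0.158). Its only probe set was dim in Lig4mut, where the floor is 3. Stip1, which links Hsp70 to Hsp90, was at 0.62 ± 0.25 and Ahsa1, which speeds the ATPase of Hsp90, at -0.49 ± 0.25 (SE, n = 3; limma adjusted p = 0.266 and 0.347). Of 15 genes of the TRiC/CCT chaperonin and prefoldin, 12 had lower means (median -0.13, but 0.18 with arrays centred on their medians), among them Pfdn6 at -0.60 ± 0.19 and Vbp1 at -0.96 ± 0.46. Cct8 was at 0.87 ± 0.23 by its brightest probe set (SE, n = 3; limma adjusted p of the 3 genes = 0.194, 0.326 and 0.158), but 1 of its 2 probe sets had the other sign.

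The lists of small heat shock genes and heat shock factors had medians above 0 under all 4 scalings, as did all genes (0.18, and 0.02 as deposited). Both lists were dim, with mean levels per array of 6.01 to 7.07 and 6.12 to 6.64, beside 6.99 to 7.13 for all genes. Of all 18193 genes 11174 had higher means, and 15.5% were higher at an unadjusted p under 0.05. All Lig4mut arrays lay above WT in 16.6% of all probe sets. Of 9 other small heat shock genes, 7 had higher means (median 0.60, but 0.31 as deposited and 0.40 with loess), and Cryab had the lowest difference, -2.17. The leading ones by p were Hspb9 at 1.05 ± 0.18, Cryaa at 0.86 ± 0.17 and Hspb7 at 0.83 ± 0.21 (SE, n = 3; limma adjusted p = 0.13, 0.138 and 0.151). Hspb9 stood at 5.03, 5.11 and 4.89 in WT and at 6.25, 6.17 and 5.76 in Lig4mut, without overlap. Of 5 genes of other heat shock factors and their partners, 4 had higher means (median 0.39, but 0.21 as deposited), and Hsf2 was at -0.75 (both Cryab and Hsf2 fall outside the naming rule and were chosen after their values were seen). Those with the smallest p were Hsf2bp at 0.39 ± 0.14, Hsf4 at 0.55 ± 0.22 and Hsf5 at 0.62 ± 0.27, with all Lig4mut arrays above WT (SE, n = 3; limma adjusted p = 0.233, 0.254 and 0.287). As deposited, Hsf2bp was at 0.07 and Hsf4 at 0.25, and 1 of 2 Hsf2bp probe sets had this sign. Hsf5 was at or near the floor of 3 in WT, from 3.00 to 3.18.

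Of 10 other Hsp70 and Hsp110 genes, 5 were lower and 5 higher (median 0.03, and -0.05 as deposited). Hspa4l, a close relative of Hspa4, had a difference of 1.21 ± 0.44, Hspa12a 0.78 ± 0.18 and Hspa13 -0.79 ± 0.35 (SE, n = 3; limma adjusted p = 0.229, 0.147 and 0.296). Without _s_at and _x_at probe sets Hspa12a was at 0.278, and the mean of its 4 probe sets at 0.218. Hspa4l stood at 8.16, 8.92 and 8.32 in WT and at 10.33, 8.86 and 9.83 in Lig4mut. Its Lig4mut replicates 1 and 3 were above all WT arrays and replicate 2 was not, and 3 of its 5 probe sets had the sign of the brightest. Of 16 other mitochondrial chaperones and proteases, 9 had lower means (median -0.08, but 0.23 median-centred and 0.02 with loess) and none was at an unadjusted p under 0.05. The leading ones were the proteases Afg3l2 at 0.60 ± 0.25 and Spg7 at 0.77 ± 0.33, and Hscb, a J-domain protein of iron-sulphur cluster assembly, at -0.67 ± 0.38 (SE, n = 3; limma adjusted p = 0.27, 0.278 and 0.397).

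**Figure D4:**
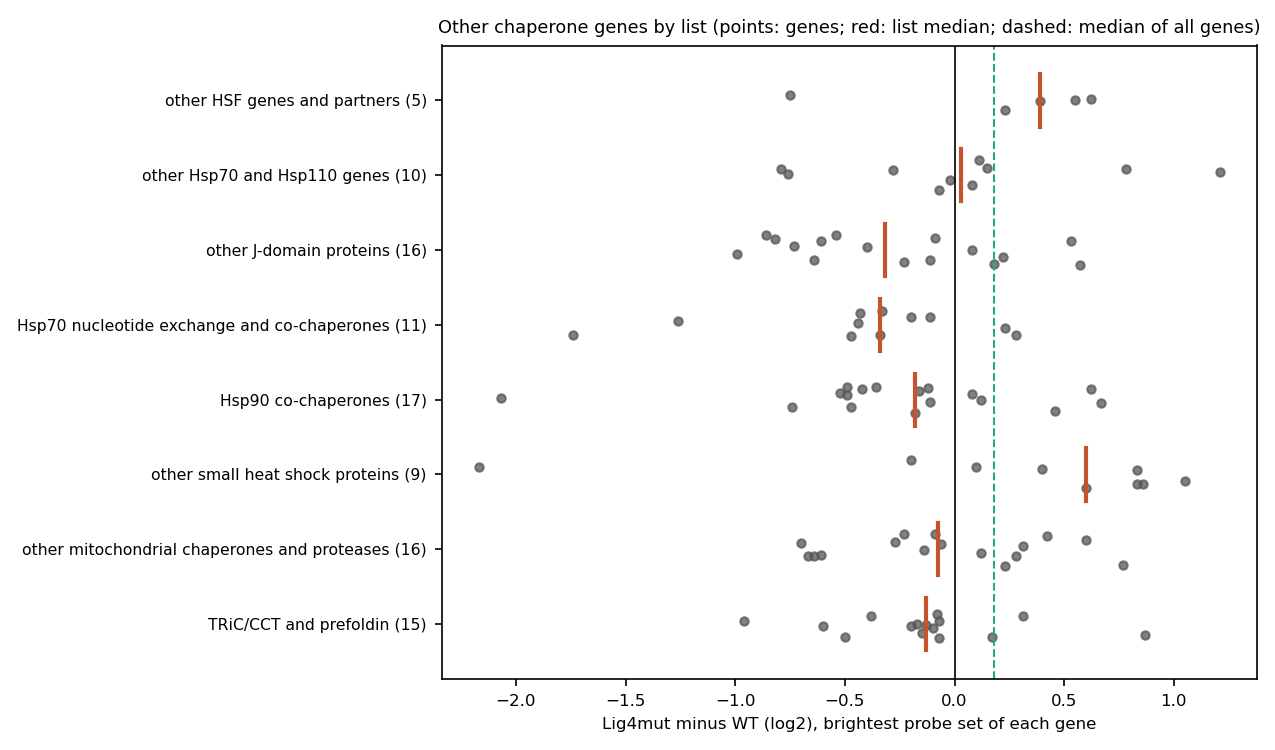
Lig4mut minus WT (log2, x axis) of the other chaperone genes by list, 1 point per gene from its brightest probe set, with the list median in red, the median of all genes (0.18) dashed and the number measured in brackets. The medians lie at -0.34 for Hsp70 co-chaperones and -0.31 for J-domain proteins and at 0.60 for small heat shock proteins.

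Some further heat-inducible genes and the mitochondrial Hsp70 are given because of what they do; they fall outside the naming rule and were chosen after their values were seen. Hspa1a and Hspa1b, the inducible Hsp70 genes, are near-identical copies that probes may not separate. Hspa1b stood at 11.30, 11.79 and 11.44 in WT and at 11.53, 11.75 and 11.70 in Lig4mut, a difference of 0.15 ± 0.18, and Hspa1a had 0.11 ± 0.37 (SE, n = 3; limma adjusted p = 0.68 and 0.907). Hsph1, the inducible Hsp110, was at -0.28 ± 0.27 and Hspb8, the small partner of Bag3, at 0.83 ± 0.36 (SE, n = 3; limma adjusted p = 0.608 and 0.287). Without Lig4mut replicate 1 Hsph1 was at -0.00974, and without _s_at and _x_at probe sets Hspb8 was at 0.209. Cryab was at -2.17 ± 0.60 by its brightest probe set (SE, n = 3; limma adjusted p = 0.169), a sign shared by 1 of its 3 probe sets, and Hspa9 was at -0.09 ± 0.21 (SE, n = 3; limma adjusted p = 0.856).

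Immediate early genes, which respond within minutes to stress and cell handling, are given beside Dnajb1 for all 19 genes listed. Their mean level was 9.74, 11.04 and 11.01 in WT and 9.49, 10.52 and 10.67 in Lig4mut, and 16 of 19 had lower means in Lig4mut (median -0.34, and -0.03 with arrays centred on their medians). The lowest array within each genotype was replicate 1, as it was for Dnajb1 at both probe sets. The part of this in the Dnajb1 result was not tested.

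The mean profile of the 8 measured heat shock genes, each by its brightest probe set and centred over the 6 arrays, was -0.18, 0.12 and 0.10 in WT and 0.02, 0.08 and -0.14 in Lig4mut. It was lowest in WT replicate 1 and Lig4mut replicate 3, so the genotypes overlapped. The values were not scaled by their spread, so the dim Hspb1, at 5.59 to 7.78 over the arrays, weighed most in this profile. It was lowest in WT replicate 1 and highest in Lig4mut replicate 2. The profile and the genes closest to it were not recomputed without Hspb1. Over the 6 arrays, the genes with the closest centred profile were Aldoa (root mean square distance 0.043 log2), Cdh9 (0.057), Grcc10 (0.060), Snrpg (0.060) and Tmtc1 (0.064). Their profiles also spanned small ranges, and all values come from the same 6 arrays.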

How the data were processed

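Arrays were those of 6 samples, 3 WT and 3 Lig4mut, grouped by their genotype labels. The authors deposited 1 log2 value per probe set and array. The submitters' processing notes name RMA, with no version. No value is under 3 on any array, and the origin of this floor was not stated. Arrays have no sequencing depth, and their number limits the precision.

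Of 45101 probe sets, 64 controls, 932 naming several genes and those with no gene in GEO's platform annotation were left out. Symbols of 34741 of the 34945 kept were updated through the gene identifier to RefSeq's table for GRCm38.p6. Deposited distributions differed by genotype, so values were quantile normalized over the 6 arrays.

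Differences are Lig4mut minus WT, with SE and 95% intervals from limma 3.58.1 (R 4.3.3; genotype as the only term, eBayes moderation, two-sided), Benjamini-Hochberg adjustment over all probe sets, or over 18193 genes each by its probe set of highest mean, and a threshold of 0.05. Group means are mean ± SD of 3 arrays. The code was tested on simulated data. Alternatives were the deposited, median-centred and cyclic loess values, a replicate block, omission of each array in turn, omission of probe sets under the 40th percentile of level, trend and robust moderation, array weights, leaving out _s_at and _x_at probe sets, other thresholds and averaging the probe sets of a gene. The text names every member probe set, up to 3 genes of each chaperone list with the smallest unadjusted p, and the 5 genes closest in profile. The members and lists were chosen with earlier results of these data known.

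Marker lists were set beside the results as mean levels. Mean levels in WT and Lig4mut were 4.87 to 5.43 and 5.41 to 6.12 for T and NK cell genes, 6.92 to 7.08 and 6.90 to 7.14 for erythroid genes, 7.41 to 7.84 and 7.44 to 8.13 for megakaryocyte genes, and 7.14 to 9.06 and 8.21 to 9.81 for endothelium and stroma.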

Additional observations from a re-analysis of the deposited data

How the results depend on the processing

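Of 34945 probe sets, 1 passed the adjusted threshold, and 1 did with median centring, cyclic loess, trend and robust moderation, or without _s_at and _x_at probe sets. It was 2 as deposited, 0 with the dim probe sets left out and 0 with array weights (limma; 2603 and 5918 at an unadjusted p under 0.05). It was 0 to 0 over the 6 fits that each leave out 1 array (4123 to 7078 at an unadjusted p under 0.05), 5 at an adjusted p under 0.10 and 6106 at an unadjusted p under 0.05. With the replicate number as a block it was 0 (5077 at an unadjusted p under 0.05). Same-numbered arrays had deviations from their genotype means correlated at 0.043, 0.007 and -0.031, and differently numbered ones at -0.059 to 0.054. Same-numbered correlations thus lay within the range of the others. The labels do not say whether the numbers pair animals, and these few values do not settle it. Deviations sum to 0 within a genotype, so the correlations depend on each other. The block gave no call among members.

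Member calls by limma were 0 in 15 settings (1 to 5 at an unadjusted p under 0.05) and 5 at the unadjusted threshold itself. Calls in the wider lists were 0 in 16 settings (4 to 17) and 14. Of 315 alternative values of member probe sets, 292 kept direction and side of the threshold, and the lowest limma adjusted p was 0.138. The count includes settings that leave the difference of a probe set unchanged, so that only its p-value could move. These are the replicate block, trend and robust moderation, and the omission of dim or of _s_at and _x_at probe sets.

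Signs reversed as follows. Centred on array medians, Hspa8 was 0.205 (1420622_a_at), 0.135 (1420623_x_at), 0.0303 (1431182_at) and 0.281 (1455789_x_at), Hspa4 1435194_at 0.131, Hsp90aa1 0.186 (1426645_at) and 0.302 (1438902_a_at), Dnaja1 1416288_at 0.19, Hsph1 0.0704 and Hspa9 0.261. With loess, Hspa8 1455789_x_at was 0.0252, Hsp90aa1 1438902_a_at 0.0599 and Hspa9 0.033. Over the fits that each leave out 1 array, values ran from -0.0792 to 0.0666 for Hspa8 1455789_x_at, -0.167 to 0.426 (1416146_at) and -0.17 to 0.521 (1416147_at) for Hspa4, -0.243 to 0.00143 (1426645_at) and -0.0941 to 0.0914 (1438902_a_at) for Hsp90aa1, -1.3 to 0.18 for Dnaja1 1459835_s_at, -0.0115 to 0.452 (1422579_at) and -0.0288 to 0.167 (1450668_s_at) for Hspe1, -0.218 to 0.4 for Hspa1a and -0.215 to 0.0963 for Hspa9. Averaging the probe sets of a gene gave -0.19 for Hspa4, 0.147 for Hsp90aa1 and 0.0899 for Hspa9. The cause was not tested. All member probe sets whose sign reversed were among the brightest 20%, and no dim member reversed. Apart from these reversals, dim probe sets lie close to background, where a difference is least certain.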
